A study of Mus musculus with 23 samples.

Results

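Muscle cells carry their own versions of the proteins that hold oxygen and pass on energy. The genes described here are 8: Mb (myoglobin), the creatine kinases Ckm, Ckb, Ckmt2 and Ckmt1, and the cytochrome oxidase subunits Cox7a1, Cox6a2 and Cox8b. They were chosen by symbol, by taking every probe set that the array annotation gives to 1 of these genes alone, which gave 12 probe sets for 8 of the 18193 genes tested. Mb, Ckm, Ckmt2, Cox7a1, Cox6a2 and Cox8b are the muscle forms. Ckb and Ckmt1 are the non-muscle creatine kinases, and Cox7a2, Cox6a1 and Cox8a are the subunits that other tissues use in place of the muscle ones.

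Myoglobin binds oxygen in the cytosol of heart and oxidative muscle. Creatine kinases move the phosphate of ATP to creatine and back, so that the mitochondrial forms charge creatine where ATP is made and the cytosolic forms recharge ATP at the contractile filaments. Cytochrome oxidase is the last enzyme of the respiratory chain, and several of its nuclear-encoded subunits exist in a heart and muscle form and a form for other tissues.

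The study asked whether RNA of one cell type can change another, and measured single mouse cells on Affymetrix arrays after amplification of their RNA. The 5 fibroTIPeR cells were fibroblasts that received cardiomyocyte poly-A RNA by lipofection, and the 3 fibroControl cells were fibroblasts that received RNA of fibroblasts. The 6 astroTIPeR cells were astrocytes that received RNA of cardiomyocytes, and the 2 astroControl cells were mock-transfected astrocytes, given no RNA of another cell. The 4 cardiomyocyte and 3 fibroblast cells were not transfected. All cells had been cultured in DMEM with serum and were picked with glass micropipettes. Strain, age and the time between transfection and picking are not given in the labels. Each sample is 1 cell. The labels do not say that cells of a group came from separate cultures or animals, so p-values reflect the spread of these single cells alone, part of which can be technical.

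Levels are log2 values after quantile normalization of all 23 arrays. On this scale the median gene stood at 5.71 and the 90th percentile at 10.94. The number of arrays limits the precision, and no detection call was used, so a low level may be background. The level of an array reflects the share of a cell's amplified RNA. Astrocyte cells were on arrays of a different value range from the others, so that a level set across the array sets compares array set and cell type together, which cannot be told apart. The 18S ribosomal RNA probe sets averaged 10.51 ± 2.59 (SD, n = 5) in fibroTIPeR, 11.62 ± 0.43 (n = 3) in fibroControl, 8.73 ± 0.68 (n = 6) in astroTIPeR, 8.63 ± 0.65 (n = 2) in astroControl, 7.48 ± 0.59 (n = 4) in cardiomyocyte and 7.45 ± 0.53 (n = 3) in fibroblast cells. FibroTIPeR 4 and 5 were at 7.80 and 7.88, and fibroTIPeR 1 to 3 at 11.03 to 13.48. The labelled cell types were checked with markers. Troponin I of the heart (Tnni3) was at 10.54 to 12.81 in cardiomyocytes and 4.12 to 5.43 in fibroblasts. Vimentin (Vim), a filament protein of mesenchymal cells, was at 3.05, 4.17 and 4.65 in cardiomyocytes 3, 2 and 1 but at 11.38 in cardiomyocyte 4, against 14.57 to 15.38 in fibroblasts. The defining filament of astrocytes, Gfap, was at 3.54 to 6.28 in astroTIPeR and at 4.90 and 5.73 in astroControl cells, against 4.81 to 7.85 in cardiomyocytes, so that it did not mark the astrocytes here.

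The stretches upstream of the members that the comparisons below turn on are shown first, with that of Ckb as a non-muscle gene. They are from RefSeq on the GRCm38.p6 build, printed 5′ to 3′ on the strand of the gene, and capitals mark CAGCTG, an E-box of the kind that basic helix-loop-helix factors bind. The window of Mb lies at chr15:77022788-77023037 (minus strand), inside the span of the gene (77015487 to 77050668), because Mb has 3 annotated starts. That of Ckmt2 lies at chr13:91876924-91877135 (minus strand), just outside the gene (91853386 to 91876923), without the 38 bases of its searched window that lie inside the gene span, and that of Cox7a1 at chr7:30183921-30184170 (plus strand), before the gene (30184171 to 30186030). Ckb has its window at chr12:111672339-111672588 (minus strand), next to the gene (111669355 to 111672338).
Mb: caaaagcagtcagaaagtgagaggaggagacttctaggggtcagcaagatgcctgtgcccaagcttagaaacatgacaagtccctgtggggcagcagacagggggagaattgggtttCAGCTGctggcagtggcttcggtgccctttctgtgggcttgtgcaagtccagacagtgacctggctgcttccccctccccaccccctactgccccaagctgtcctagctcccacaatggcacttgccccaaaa
Ckmt2: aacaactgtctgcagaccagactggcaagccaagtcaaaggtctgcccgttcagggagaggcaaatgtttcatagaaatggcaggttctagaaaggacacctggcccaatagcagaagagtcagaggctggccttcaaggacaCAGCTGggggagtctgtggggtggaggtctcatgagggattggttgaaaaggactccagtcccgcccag
Cox7a1: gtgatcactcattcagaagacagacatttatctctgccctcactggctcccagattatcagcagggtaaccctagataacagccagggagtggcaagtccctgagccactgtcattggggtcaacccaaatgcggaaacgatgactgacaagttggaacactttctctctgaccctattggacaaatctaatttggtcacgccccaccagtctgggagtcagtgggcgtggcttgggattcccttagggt
Ckb: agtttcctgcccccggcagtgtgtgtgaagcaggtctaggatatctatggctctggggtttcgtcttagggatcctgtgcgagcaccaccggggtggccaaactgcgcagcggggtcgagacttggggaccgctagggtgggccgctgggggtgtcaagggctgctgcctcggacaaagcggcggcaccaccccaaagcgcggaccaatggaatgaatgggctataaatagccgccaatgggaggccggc
Entries were found for 7 of the 8 members. All motifs were searched in the whole windows of 250 bases before each annotated start. CAGCTG was in a window of 4 of 5 muscle genes with an entry (Mb, Ckm, Ckmt2 and Cox8b) and of 0 of 5 non-muscle genes (Ckb, Ckmt1, Cox7a2, Cox6a1 and Cox8a), which is 5 of 7 muscle windows, since some genes have several starts, and 0 of 6 non-muscle windows, while 13.0% of all 32851 promoter windows of 250 bases hold it. The Mb windows with a match overlap and share it. Counted from the start that each searched window precedes, its first base was at -133 in the printed Mb window, -107 in Ckmt2 (where the printed stretch ends 38 bases before that start), -19 in Cox8b and -249 in Ckm. The looser form CANNTG, which includes CAGCTG, is in 66.2% of windows and was in that of Cox7a1, which has no CAGCTG. It was in 9 of the 13 windows of these genes, among them those of the non-muscle Cox7a2 and Cox8a. Other motifs were searched on both strands: TATAAA (12.4% of windows) was in Ckb and Ckmt1. The MEF2 site (2.92%) was in Ckb, where it overlaps the previous motif. Cox7a1 held 3 matches of GATAA (22.6%), which was also in Cox6a1. Ckmt1 held AAGGTCA (4.08%). None of these windows held the CArG box (1.47%) or the motif CATTCCT (4.51%). A match is a description of these letters, and CAGCTG was put in capitals after the windows had been read.

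Cardiomyocytes were compared with untreated fibroblasts to see which muscle forms set the donor cells apart. Myoglobin, the mitochondrial creatine kinase of muscle and the muscle form of subunit 7a rose in cardiomyocytes, by 2.85, 3.14 and 2.93 on the log2 scale. Their levels in fibroblasts lay below the median gene, at values shared by 340 to 815 probe sets of an array for Mb, 390 to 979 for Ckmt2 and 212 to 952 for Cox7a1, so that the size of these differences is uncertain. The other muscle forms, Ckm, Cox6a2 and Cox8b, and the non-muscle Ckb and Ckmt1 did not pass the test with the probe sets used for the genes. Thus 3 of 8 members passed, all higher, where 0.225% of all genes passed in either direction and 0.0989% were higher, by limma with Benjamini-Hochberg adjustment over 18193 genes at a threshold of 0.05. The members were chosen with earlier results of these data known, so this count and the later ones are descriptions.

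Myoglobin was at 6.63, 7.05, 7.52 and 7.49 in cardiomyocytes 1 to 4, against 4.31, 4.38 and 4.28 in fibroblasts 1 to 3 (1451203_at). Every cardiomyocyte was above every fibroblast, as in 8.41% of all genes. The difference was 2.85 (SE 0.52, 95% interval 1.78 to 3.91, adjusted p = 0.01125 by limma). Ckmt2, which sits in the space between the mitochondrial membranes and charges creatine, was at 4.65, 6.61, 7.44 and 6.48 in cardiomyocytes, against 3.16, 2.35 and 3.95 in fibroblasts. Here too the groups did not overlap, although cardiomyocyte 1 lay close to fibroblast 3. The value of cardiomyocyte 1 was shared by 1794 probe sets of its array and lay below the median gene, so it may be background. Ckmt2 differed by 3.14 (SE 0.64, interval 1.83 to 4.45, adjusted p = 0.0285 by limma). Cox7a1, the heart and muscle form of a small subunit of cytochrome oxidase, was at 6.50, 7.05, 8.74 and 8.62 in cardiomyocytes, against 4.82, 4.21 and 5.34 in fibroblasts. The groups did not overlap, and cardiomyocytes 3 and 4 were the highest cells. Cox7a1 differed by 2.93 (SE 0.64, interval 1.61 to 4.26, adjusted p = 0.04804 by limma). These calls depended on single cells. Without fibroblast 3 none of the 3 passed, with differences of 2.83 for Mb (adjusted p = 0.07809), 3.54 for Ckmt2 (0.05992) and 3.21 for Cox7a1 (0.1367). Without fibroblast 1, fibroblast 2, cardiomyocyte 3 or cardiomyocyte 4 only Mb did, and without cardiomyocyte 2 Ckmt2 did not. Without cardiomyocyte 4, the cell of high vimentin, the differences were 2.74 for Mb (adjusted p = 0.03527), 3.08 for Ckmt2 (0.07441) and 2.63 for Cox7a1 (0.1675). Of 10 other settings of the analysis, Mb passed in 7, Ckmt2 in 5 and Cox7a1 in 1.

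**Figure D1:**
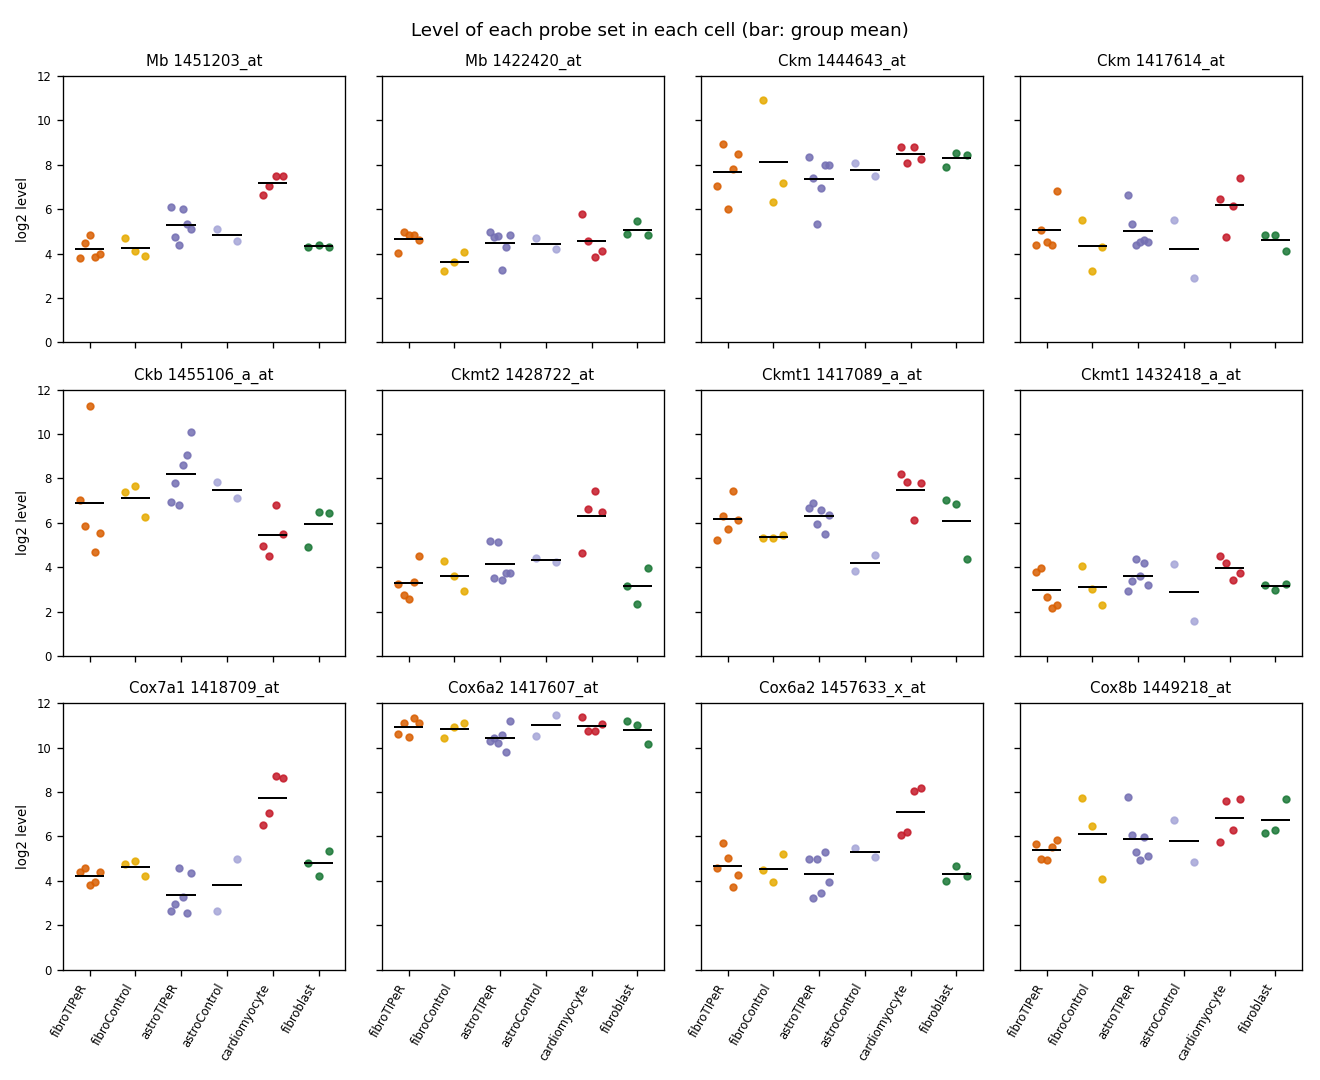
Log2 level of the 12 probe sets in each of the 23 cells (points), by group, with the group mean as a bar. Cardiomyocytes stand above all fibroTIPeR, fibroControl and fibroblast cells for Mb 1451203_at, Ckmt2, Cox7a1 and Cox6a2 1457633_x_at, and Cox6a2 1417607_at lies between 9.81 and 11.49 in all cells.

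The creatine kinase of the cytosol in muscle, Ckm, gave less. Its probe set with the higher mean, 1444643_at, was at 8.81, 8.10, 8.79 and 8.28 in cardiomyocytes, against 7.90, 8.55 and 8.43 in fibroblasts. The groups overlapped, with a difference of 0.20 (interval -1.77 to 2.17). The other probe set, 1417614_at, was at 6.44, 4.74, 6.14 and 7.42 in cardiomyocytes and at 4.86, 4.85 and 4.12 in fibroblasts. On it 3 of 4 cardiomyocytes were above every fibroblast, and cardiomyocyte 2 was not. In a limma fit of all 34945 probe sets this difference was 1.57 (interval 0.00 to 3.14, adjusted p = 0.5369). Ckb, the brain-type kinase, was at 4.95, 4.52, 6.80 and 5.49 in cardiomyocytes, against 4.93, 6.50 and 6.45 in fibroblasts, which overlap (difference -0.52, interval -2.83 to 1.79). Ckmt1, the mitochondrial kinase of tissues other than muscle, was at 8.20, 7.86, 6.14 and 7.77 in cardiomyocytes and at 7.02, 6.87 and 4.37 in fibroblasts. Of the cardiomyocytes 3 of 4 were above all fibroblasts, and the difference of 1.41 (interval -0.09 to 2.90, adjusted p = 0.5447 by limma) did not pass.

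Cox6a2, the muscle form of subunit 6a, was read differently by its probe sets. On 1417607_at, the one with the higher mean, cardiomyocytes were at 10.73 to 11.38 and fibroblasts at 10.16 to 11.19, a difference of 0.20 (interval -0.61 to 1.02). On 1457633_x_at they were at 6.08, 6.19, 8.03 and 8.17 in cardiomyocytes, against 4.01, 4.67 and 4.21 in fibroblasts. On this one the groups did not overlap, and cardiomyocytes 3 and 4 were again highest. Cardiomyocytes lay above fibroblasts without overlap in 8.41% of all genes. The fibroblast values were below the median gene and shared by 401 to 865 probe sets of an array, so the size of this difference is uncertain. In the fit of all probe sets, where 0.160% passed in either direction, the difference was 2.82 (SE 0.66, interval 1.47 to 4.18, adjusted p = 0.07562 by limma), which did not pass. In the same fit Mb (adjusted p = 0.01943) and Ckmt2 (0.03165) passed and Cox7a1 (0.05756) did not. Cox8b, the muscle form of subunit 8, was at 5.76, 7.59, 6.28 and 7.69 in cardiomyocytes and at 6.16, 6.31 and 7.69 in fibroblasts. It overlapped fully, with a difference of 0.11 (interval -1.60 to 1.82).

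The probe sets of a gene followed one another in part for Ckm (Pearson r 0.49, Spearman rho 0.65 over 23 cells) and little for the other genes. Pearson r was -0.05 for Mb, 0.16 for Ckmt1 and 0.09 for Cox6a2, and Spearman rho was -0.04, 0.10 and 0.05 for the same genes, given as a description of cells of different types and array sets. For Mb the second probe set, 1422420_at, was at 5.76, 4.58, 3.87 and 4.12 in cardiomyocytes, against 4.90, 5.46 and 4.85 in fibroblasts, so that only 1451203_at set the cardiomyocytes apart. With the mean of both probe sets Mb differed by 1.18 (adjusted p = 0.2293 by limma) and did not pass. Ckmt2, Cox7a1, Cox8b and Ckb have 1 probe set each, and no second reading of them exists in these data.

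**Figure D2:**
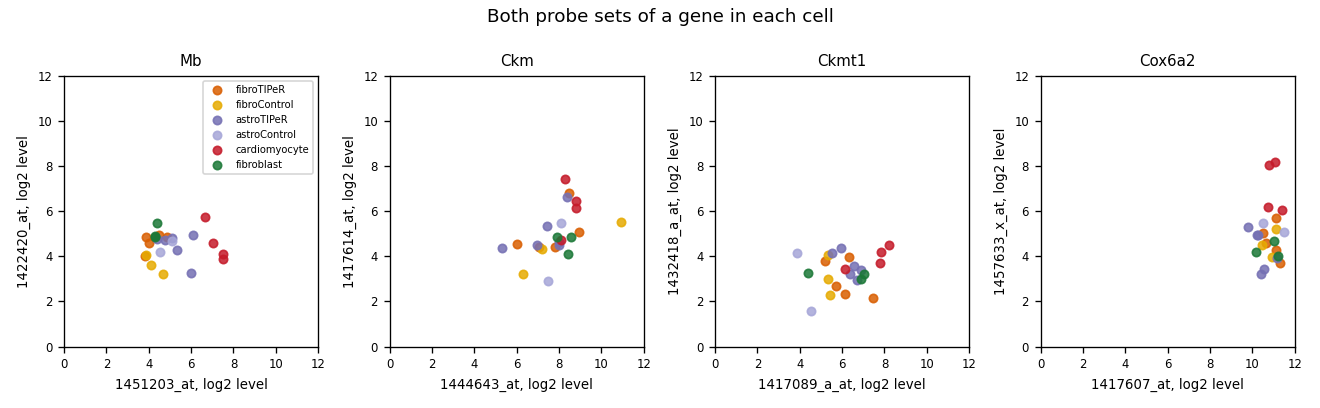
Log2 level of the probe set used (horizontal) against the other probe set (vertical) of Mb, Ckm, Ckmt1 and Cox6a2, with 1 point for each of the 23 cells, coloured by group. Cardiomyocytes are set apart along the horizontal axis for Mb and along the vertical axis for Cox6a2, and the correlation is 0.49 or lower in each panel.

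FibroTIPeR cells were compared with fibroControl cells to ask whether the energy genes of muscle came with the RNA of cardiomyocytes. None of the 8 members passed, and 0 had an unadjusted p under 0.05, where 0.00550% of all genes passed by limma (1 of 18193, lower) and 1204 had an unadjusted p under 0.05. The probe sets that set cardiomyocytes apart were at fibroblast levels in both groups.

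Myoglobin was at 3.81, 4.49, 4.86, 3.86 and 4.0 in fibroTIPeR cells 1 to 5, against 4.69, 4.12 and 3.89 in fibroControl cells 1 to 3. These overlap, with a difference of -0.03 (SE 0.50, interval -1.05 to 0.99, adjusted p = 0.9965 by limma), whereas cardiomyocytes stood 2.85 above fibroblasts. Over the other settings and with cells left out it ran between -0.30 and 0.50 and did not pass. The second probe set of Mb, 1422420_at, which did not set cardiomyocytes apart, was at 4.03, 4.97, 4.85, 4.86 and 4.61 in fibroTIPeR and at 3.22, 3.62 and 4.07 in fibroControl cells. On it 4 of 5 fibroTIPeR cells were above every fibroControl cell, and the difference of 1.02 (interval -0.01 to 2.06, adjusted p = 0.7563 by limma) did not pass. All these values lay below the median gene, so they may be background. They were shared by 192 to 2210 probe sets of an array in fibroTIPeR and by 556 to 1649 in fibroControl cells. Ckmt2 was at 3.22, 2.76, 2.56, 3.32 and 4.50 in fibroTIPeR and at 4.28, 3.62 and 2.94 in fibroControl cells. FibroTIPeR 5 was the highest of these, and 0 of the 5 reached the lowest cardiomyocyte (4.65), whose value may itself be background. The difference was -0.34 (interval -1.60 to 0.91). Cox7a1 was at 4.40, 4.59, 3.81, 3.95 and 4.38 in fibroTIPeR and at 4.78, 4.89 and 4.21 in fibroControl cells, a difference of -0.40 (interval -1.67 to 0.86). For each of these 3 genes the upper end of the interval lay below the difference between cardiomyocytes and fibroblasts. Cox6a2 on 1457633_x_at was at 4.58, 5.70, 5.03, 3.72 and 4.26 in fibroTIPeR and at 4.50, 3.96 and 5.19 in fibroControl cells. FibroTIPeR 2 was highest, still below every cardiomyocyte, and the difference was 0.11 (interval -1.19 to 1.40).

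In the remaining members the groups overlapped as well. Ckb was at 7.02, 5.87, 11.24, 4.70 and 5.52 in fibroTIPeR and at 7.37, 7.67 and 6.28 in fibroControl cells, where fibroTIPeR 3 held the highest Ckb value of all 23 cells. Its difference was -0.24 (interval -2.45 to 1.97). Ckm on 1444643_at was at 7.05, 8.95, 6.01, 7.79 and 8.49 in fibroTIPeR and at 10.91, 6.32 and 7.20 in fibroControl cells. Here fibroControl 1 was the highest cell, and the difference was -0.48 (interval -2.37 to 1.40). On 1417614_at it had the other sign, 0.69 (interval -0.81 to 2.19), with 4.40 to 6.80 in fibroTIPeR and 3.22 to 5.53 in fibroControl cells. Ckmt1 was at 5.21 to 7.45 in fibroTIPeR and at 5.32 to 5.43 in fibroControl cells, a difference of 0.81 (interval -0.62 to 2.24), against -0.13 (interval -1.31 to 1.05) on its other probe set. Cox8b was at 4.92 to 5.83 in fibroTIPeR, the narrowest range of its groups of 3 or more cells, and at 4.07 to 7.74 in fibroControl cells, a difference of -0.72 (interval -2.35 to 0.92). The intervals of Ckb, Ckm and Cox8b are the widest of the 8 genes and include 0.

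**Figure D3:**
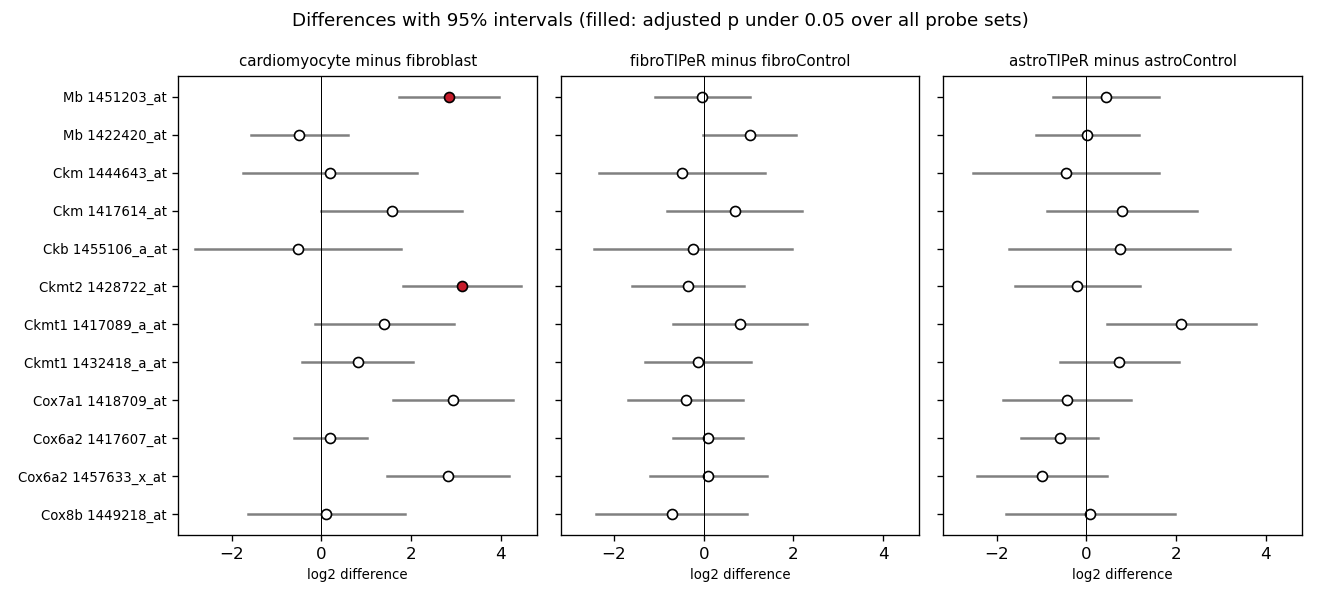
Log2 difference of each of the 12 probe sets (points) with its 95% interval (lines) in the limma fit of all probe sets, for cardiomyocyte minus fibroblast, fibroTIPeR minus fibroControl and astroTIPeR minus astroControl; filled points passed. Only Mb 1451203_at and Ckmt2 are filled, both in the first panel, and their intervals there do not overlap those of fibroTIPeR minus fibroControl.

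Against untreated fibroblasts, which adds the effect of transfection, 0 of 8 members passed in fibroTIPeR cells (0.0550% of genes did) and 0 of 8 in fibroControl cells (1.56% of genes). Both comparisons share the fibroblasts. Mb differed by -0.12 in fibroTIPeR (interval -1.14 to 0.90) and by -0.09 in fibroControl cells (interval -1.23 to 1.05). Cox8b was lower in every fibroTIPeR cell than in every fibroblast, and did not pass (difference -1.34, interval -2.98 to 0.29, adjusted p = 0.6038 by limma); all fibroTIPeR cells lay below all fibroblasts for 2.35% of genes. FibroTIPeR cells had more 18S signal (10.51) than fibroblasts (7.45). FibroTIPeR 4 and 5, the cells of low 18S level, were at 5.50 and 5.83 for Cox8b, and the lowest fibroblast at 6.16. Under the other settings, which include the 18S level as a covariate, Cox8b kept its sign and did not pass. The cause of this difference was not tested.

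Set against cardiomyocytes, fibroTIPeR cells were lower in the muscle forms that also set cardiomyocytes apart from fibroblasts. Mb differed by -2.97 (SE 0.45, adjusted p = 0.0007846), Ckmt2 by -3.02 (SE 0.56, adjusted p = 0.006885) and Cox7a1 by -3.50 (SE 0.57, adjusted p = 0.001653), all by limma and without overlap, as in 2.01% of all genes on the lower side. Those 3 of 8 members passed, where 0.561% of genes did and 0.137% were lower. In the fit of all probe sets Cox6a2 on 1457633_x_at was lower too (-2.46, adjusted p = 0.0424 by limma), where 0.143% of probe sets were. In that fit the second probe set of Mb, 1422420_at, did not pass in fibroTIPeR cells (0.08, adjusted p = 0.9609 by limma). It did not pass in fibroControl cells against cardiomyocytes either (-0.95, adjusted p = 0.3567 by limma). FibroControl cells, compared with the same cardiomyocytes, were lower in Mb (-2.94, adjusted p = 0.002932), Ckmt2 (-2.68, adjusted p = 0.02038) and Cox7a1 (-3.10, adjusted p = 0.009594), again 3 of 8, where 3.32% of genes passed and 1.18% were lower. Ckmt2 did not pass without cardiomyocyte 3 in fibroTIPeR cells (adjusted p = 0.05461), nor in fibroControl cells without fibroControl 2 (0.06473), fibroControl 3 (0.08672), cardiomyocyte 2 (0.05078) or cardiomyocyte 3 (0.06826). The 18S mean was above that of cardiomyocytes (7.48) in both transfected groups. With the 18S level as a covariate Mb (-3.18, adjusted p = 0.02026) and Cox7a1 (-3.80, adjusted p = 0.03445) passed in fibroTIPeR cells and Ckmt2 (-2.48, adjusted p = 0.5182) did not, and in fibroControl cells none of the 3 passed. The differences there were -3.22 for Mb (adjusted p = 0.1814) and -3.50 for Cox7a1 (0.3208), larger in size than without the covariate, and -1.94 for Ckmt2 (0.7247), which was smaller. With fibroTIPeR 4 and 5 alone, the cells of low 18S level, Mb passed (-3.24, adjusted p = 0.03806) and Ckmt2 and Cox7a1 did not (adjusted p = 0.6717 and 0.1245).

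AstroTIPeR cells were compared with mock-transfected astrocytes for the same question in another recipient. No member passed (0 of 8, where 0.0495% of genes did). Mb was at 4.37 to 6.09 (median 5.21) in the 6 astroTIPeR cells, against 5.12 and 4.55 in the astroControl cells, a difference of 0.44 (interval -0.70 to 1.57). Ckmt2 was at 3.44 to 5.20 (median 3.73) in astroTIPeR and at 4.43 and 4.22 in astroControl cells, a difference of -0.20 (interval -1.60 to 1.21). AstroTIPeR 1 and 3, at 5.20 and 5.15, reached the lowest cardiomyocyte for Ckmt2, and none did for Mb. For Ckmt2 these values were shared by 1068 and 1611 probe sets, and that of the lowest cardiomyocyte by 1794, so all may be background. Cox7a1 was at 2.55 to 4.58 (median 3.10) in astroTIPeR and at 2.64 and 4.98 in astroControl cells, and differed by -0.43 (interval -1.85 to 0.99). The member with the lowest p was the non-muscle Ckmt1. It was at 5.50 to 6.88 (median 6.46) in astroTIPeR, against 3.85 and 4.55 in astroControl cells, so that the groups did not overlap, as in 7.02% of all genes in this direction. The difference of 2.12 (SE 0.78, interval 0.52 to 3.72, adjusted p = 0.3189 by limma) did not pass, and on its other probe set Ckmt1 overlapped (0.74, interval -0.58 to 2.06). With 2 astroControl cells these intervals are wide.

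The difference between the transfer effects in fibroblasts and in astrocytes was tested directly. It passed for 0 of 8 members and 0.00% of all genes by limma (1392 genes had an unadjusted p under 0.05, and 0 of them were members). For Mb it was -0.47 (interval -1.99 to 1.06) and for Ckmt1 -1.31 (interval -3.46 to 0.84).

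Across the array sets, astroTIPeR cells were below cardiomyocytes in Mb (-1.90, adjusted p = 0.01747), Ckmt2 (-2.17, adjusted p = 0.02979) and Cox7a1 (-4.34, adjusted p = 3.137e-05, by limma), 3 of 8 members where 2.13% of genes passed and 0.737% were lower. The groups overlapped for Ckmt2. With the values as deposited, whose array sets differ in median, these differences were -2.88 for Mb, -3.28 for Ckmt2 and -5.39 for Cox7a1, and with the mean of both probe sets Mb differed by -1.0 (adjusted p = 0.05821). When each cell was left out in turn, Cox7a1 passed in 10 of 10 fits. Mb passed in 8, missing without cardiomyocyte 3 (adjusted p = 0.05642) or 4 (0.0621), and Ckmt2 in 3, missing without cardiomyocytes 2 to 4 or astroTIPeR 2, 4, 5 or 6 (0.05896 to 0.119). Ckb, a kinase abundant in brain, was at 6.81 to 10.10 (median 8.20) in astroTIPeR cells, against 4.52 to 6.80 in cardiomyocytes. Every astroTIPeR cell was above every cardiomyocyte (as in 3.84% of all genes), by 2.78 on average (interval 0.82 to 4.73, adjusted p = 0.1291 by limma), which did not pass.

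The members differed in the order of their group means. Mb (1451203_at) averaged 7.17 in cardiomyocyte, 5.27 in astroTIPeR, 4.83 in astroControl, then 4.32 in fibroblasts, 4.23 in fibroControl and 4.20 in fibroTIPeR cells, and of these neighbours cardiomyocyte and astroTIPeR cells did not overlap, nor did astroControl and fibroblast cells, which are on different array sets. Cox7a1 averaged 7.73 in cardiomyocyte, 4.79 in fibroblast, 4.63 in fibroControl, 4.22 in fibroTIPeR, 3.81 in astroControl and 3.38 in astroTIPeR cells, and those below the cardiomyocytes overlapped their neighbours. Ckb ran the other way, with 8.22 in astroTIPeR, 7.47 in astroControl, 7.11 in fibroControl and 6.87 in fibroTIPeR cells, followed by fibroblasts at 5.96 and cardiomyocytes at 5.44, and each overlapped its neighbour in that order.

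Muscle and non-muscle forms were then set against each other within each cell, as the muscle level minus that of its partner. Probe sets differ in brightness, so that the value itself has no meaning and its change between groups does. For subunit 7a, Cox7a1 minus Cox7a2 was -1.72 ± 0.89 (SD, n = 4) in cardiomyocytes and -3.97 ± 1.14 (n = 3) in fibroblasts, a shift of 2.25 toward the muscle form without overlap. For the mitochondrial kinases, Ckmt2 minus Ckmt1 was -1.20 ± 1.98 in cardiomyocytes and -2.93 ± 2.20 in fibroblasts, a shift of 1.73 within the spread of the cells. Ckm minus Ckb shifted by 0.72 with 1444643_at and by 2.09 with 1417614_at, and the groups overlapped in both. Cox6a2 minus Cox6a1 shifted by 0.44 with 1417607_at and by 3.06, without overlap, with 1457633_x_at. Cox8b minus Cox8a shifted by 0.15. The non-muscle partners themselves did not pass: Cox7a2 averaged 9.45 in cardiomyocytes and 8.76 in fibroblasts, Cox6a1 12.53 in cardiomyocytes and 12.77 in fibroblasts, and Cox8a 12.46 in cardiomyocytes and 12.49 in fibroblasts.

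FibroTIPeR and fibroControl cells overlapped in this measure. Cox7a1 minus Cox7a2 was -4.76 ± 1.57 (SD, n = 5) in fibroTIPeR and -4.65 in fibroControl cells, and Cox6a2 (1457633_x_at) minus Cox6a1 was -8.15 ± 1.07 in fibroTIPeR and -8.22 in fibroControl cells. Ckmt2 minus Ckmt1 was -2.90 ± 1.06 in fibroTIPeR and -1.75 in fibroControl cells. In astrocytes Ckmt2 minus Ckmt1 was -2.19 ± 1.02 (n = 6) in astroTIPeR and 0.12 in astroControl cells (n = 2). This shift of -2.32, without overlap, lay mostly in Ckmt1 (difference 2.12, adjusted p = 0.3189 by limma), while Ckmt2 differed by -0.20. Neither gene passed. The Ckmt1 values of the astroControl cells were shared by 3156 and 364 probe sets of an array. On its other probe set Ckmt1 averaged 3.61 in astroTIPeR and 2.87 in astroControl cells, with overlap. Cox7a1 minus Cox7a2 was -4.90 ± 1.12 in astroTIPeR and -3.53 in astroControl cells, which overlap.

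**Figure D4:**
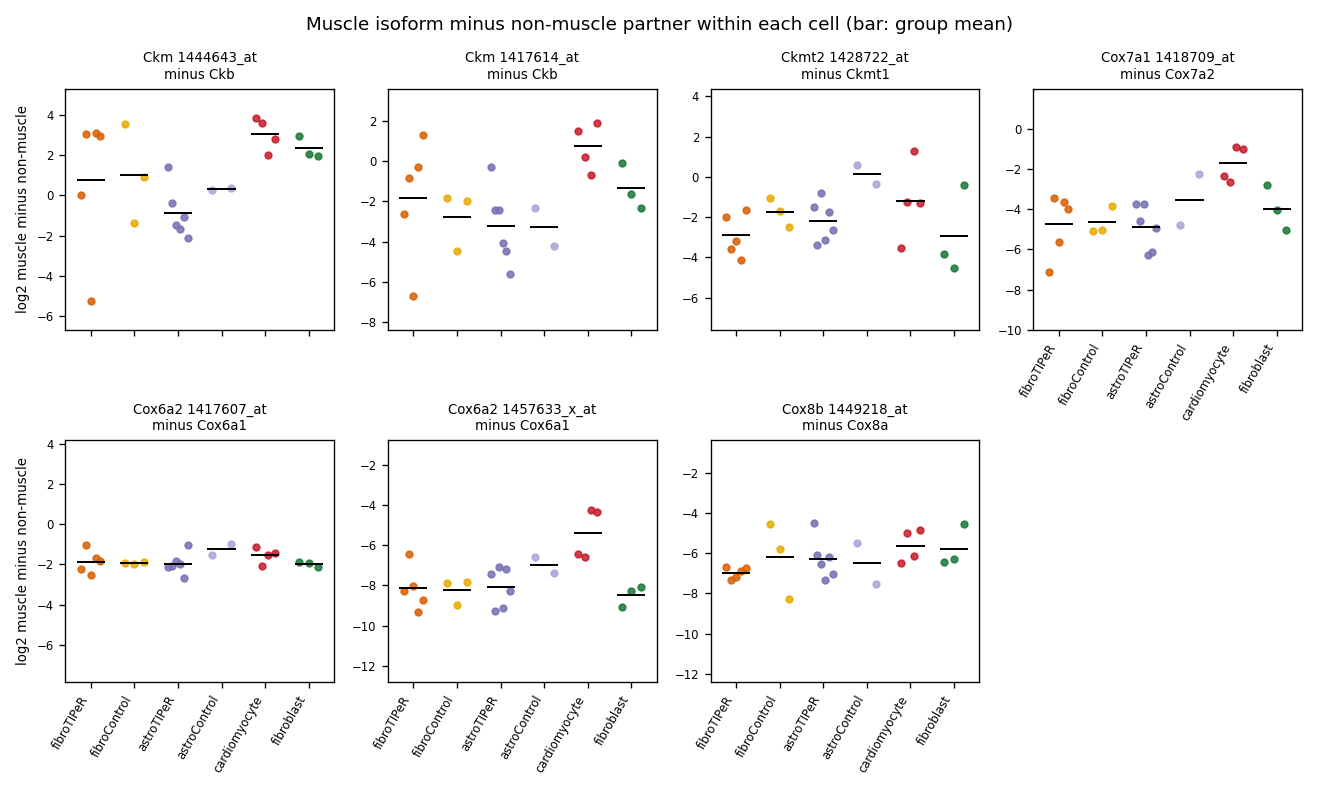
Muscle form minus non-muscle partner on the log2 scale within each cell (points), by group, with the group mean as a bar; all panels span the same range. Cardiomyocytes lie above all fibroblasts for Cox7a1 minus Cox7a2 and for Cox6a2 1457633_x_at minus Cox6a1, where the mean of fibroTIPeR cells is -4.76 and -8.15.

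The other genes of these pathways were counted in lists. Their members were chosen for their role, but with earlier results of these data known, so the counts are descriptions. Between cardiomyocytes and fibroblasts 0 of 14 measured other cytochrome oxidase subunits passed, with a median difference of 0.42 where that of all genes was 0.09. Of all genes 0.225% passed, so a count of 0, here or in the lists below, is usual for lists of this size. The lowest p among them were those of Cox6b1 (11.95 in cardiomyocytes, 11.43 in fibroblasts, adjusted p = 0.6119 by limma) and Cox4i1 (4.82 in cardiomyocytes, 6.34 in fibroblasts). Of 12 genes of creatine synthesis, transport and phosphotransfer 0 passed (median -0.07), and the ADP/ATP carriers of the inner membrane, Slc25a5 (difference 0.76, adjusted p = 0.3978) and Slc25a4 (1.76, adjusted p = 0.5588), had the lowest p by limma. None of 12 globin and haem genes passed (median 0.14), with differences of 1.76 for Alas1, which makes the first step of haem synthesis, and -1.42 for the haem oxygenase Hmox2. Of 17 cytochrome oxidase assembly genes 0 passed (median -0.23), with differences of 1.99 for Cox16 and -1.81 for Lrpprc. Of 17 regulators of mitochondrial and muscle energy genes 0 passed (median 0.01), among them the oxygen-sensing factor Hif1a, whose mean was 5.98 in cardiomyocytes, against 9.12 in fibroblasts (adjusted p = 0.396 by limma), and Ppara, a receptor that drives fat oxidation (difference 1.58).

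In the sarcomere list, by contrast, 5 of 18 rose in cardiomyocytes, where 0.0989% of all genes did, Tnni3 by 7.20 (adjusted p = 2.636e-05 by limma), Myl2 by 5.67, Myoz2 by 5.76, Mybpc3 by 4.94 and Myh6 by 4.30. In the fibroblast list 2 of 13 fell (0.126% of all genes), Vim (-9.04) and S100a4 (-5.03), and in the lists for skeletal muscle (13 genes), smooth muscle (7), astrocytes (11), neurons (8), endothelium (7) and macrophages (8) 0 passed.

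In fibroTIPeR against fibroControl cells 0 genes of these lists passed, where 0.00550% of all genes did. The regulators with the lowest p were Tead1, a factor that binds muscle promoters, at 7.98 in fibroTIPeR and 5.16 in fibroControl cells (adjusted p = 0.5015 by limma), and Mef2c, at 9.03 in fibroTIPeR and 7.16 in fibroControl cells (adjusted p = 0.7297). The other lists had their lowest p in Cox7c (0.88), Cox8c (0.84), Vdac1 (-0.26), Slc25a4 (1.47), Cpox (1.34), Uros (1.29), Cox20 (2.44) and Pet100 (-1.23), all given as differences. In astroTIPeR against astroControl cells 0 passed too, where 0.0495% of all genes did. Esrrg, a nuclear receptor of oxidative metabolism, was at 4.28 in astroTIPeR and 6.96 in astroControl cells (adjusted p = 0.1682 by limma), and Mef2c at 9.14 in astroTIPeR and 7.20 in astroControl cells (adjusted p = 0.5435). Differences were 1.83 for the assembly gene Coa7 and -1.38 for Coa6, 1.88 for the mitochondrial adenylate kinase Ak4, -0.77 for Gatm, which makes the precursor of creatine, 1.79 for cytoglobin (Cygb), -2.26 for the haem oxygenase Hmox1, 0.55 for Cox6b1 and -0.88 for Cox7c.

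Genes with a pattern like that of the members were sought over the 15 cells of the fibroblast and cardiomyocyte arrays, among genes whose level exceeded the median. Myoglobin was most like Myoz2 (Pearson r 0.97), a protein of the Z-disc, and Tnni3 (0.95). Cox7a1 was most like Tnni3 (0.91) and the heart myosin Myh6 (0.90), and Ckmt2 like lipoprotein lipase, Lpl (0.89), and Tnni3 (0.86). Cox6a2 on 1457633_x_at was most like Srl (0.89) and Myoz2 (0.87), and Cox8b like Postn (0.87), a matrix protein of fibroblasts, and Kntc1 (0.77). The members that did not set cardiomyocytes apart had other neighbours: Kcnk15 (0.84) and Nop2 (0.83) for Ckb, Gpatch8 (0.93) and Mzb1 (0.93) for Ckmt1 on 1417089_a_at, and Mettl22 (0.87) and Rgs20 (0.87) for Ckm on 1444643_at. Among the members, Mb correlated with Cox7a1 at 0.93, with Cox6a2 (1457633_x_at) at 0.90, with Ckmt2 at 0.86 and with Ckm on 1417614_at at 0.60. For Cox8b the correlation with Mb was 0.42, and for Ckb it was -0.19. The 15 points share 4 cardiomyocytes that stand above the rest, and array and depth are shared by all genes of a cell, so these values are a description.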

How the data were processed

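Expression was measured in 23 single mouse cells on 23 Affymetrix arrays, with groups taken from the sample titles. The authors deposited a table of log2 values for 45101 probe sets, judged to be log2 from their range; per the labels RNA was amplified from picked cells, and how the values were summarized and normalized, and with which software, is not stated there. Each array held 1742 to 5671 distinct values, so many probe sets share a value. Array medians differed by 1.29, above the limit of 1 that had been set, so all arrays were quantile normalized here.

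Of the probe sets, 34945 carried 1 gene symbol, 932 several and 9160 were not listed, and 64 were controls; only the first were tested. Gene IDs of 34741 matched the RefSeq gene table, and 0 symbols changed. A gene with several probe sets (9010 genes) was represented by its probe set of highest mean level. Positions are those of GRCm38.p6.

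Group means over all cells were fitted with limma 3.58.1 in R 4.3.3 (eBayes with trend), two-sided, with Benjamini-Hochberg adjustment over 18193 genes and a threshold of 0.05. Intervals are 95% intervals of that fit, unadjusted. A second fit used every probe set. The code of the fit was checked on simulated independent normal values. These held no shared low values and no array effects, so this check does not show how reliable the calls are here. Figures were drawn with matplotlib 3.10.9. Genes of like pattern are the 2 with the highest Pearson correlation among genes above the median level. Of the lists, the genes past the threshold and the 2 with the lowest p were named. The members and lists were chosen with earlier results of these data known. Alternatives were other normalizations, probe set rules, limma settings, the compared groups alone, the 18S level as a covariate, the replicate number as a block and each cell left out. Fits with fibroTIPeR 4 and 5 or 1 to 3 alone, the other probe set of a muscle gene, and cells left out of the isoform differences were added after seeing the data.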

Additional observations from a re-analysis of the deposited data

Results flagged for a closer look

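Of 36 sets of 4 to 6 cells checked, each 1 probe set of a member in 1 group, 1 held a cell far from the others. Ckm on 1417614_at was at 6.80 in fibroTIPeR 5, against 4.40, 5.06, 4.54 and 4.40 in fibroTIPeR 1 to 4. The gap to the next cell was 0.723 of the range of the group, above Dixon's critical value at the 95% level, which by construction marks about 1 in 20 such sets by chance. On the other probe set of Ckm fibroTIPeR 5 was at 8.49, inside the range of its group. The value of 6.80 lies within the range of the cardiomyocytes on the same probe set (4.74 to 7.42). This is not particular to it. The lowest cardiomyocyte was also reached by 2 of 3 fibroblasts, 1 of 3 fibroControl, 2 of 6 astroTIPeR and 1 of 2 astroControl cells.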

How the results depend on the processing

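No change of a member that passed turned its sign under the settings run. Among members past the threshold between cardiomyocytes and fibroblasts (3), 1 was past with the deposited values, with median centring, with the mean of the probe sets and without the trend, and 0 with the compared groups alone, with genes above the median level and with the replicate number as a block. When each cell was left out in turn the count was 0 to 3. Genes above the median level gave 0 members against cardiomyocytes in fibroTIPeR, fibroControl and astroTIPeR cells too, because Mb, Ckmt2 and Cox7a1 lie below that median and were not tested. Against cardiomyocytes, the 18S covariate gave 0 members in fibroControl cells, fibroTIPeR 4 and 5 alone gave 1, and leaving out cells gave 1 to 3 in astroTIPeR cells.

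Counts of all genes past the threshold moved more. For cardiomyocyte against fibroblast (41), they were 21 with the deposited values, 18 with median centring, 18 with the mean of the probe sets, 21 without the trend, 2 with the compared groups alone, 71 with the 18S covariate and 11 to 37 with a cell left out. For fibroTIPeR against fibroControl (1), they were 0 above the median level, 3 with the mean of the probe sets, 2 without the trend, 0 with the compared groups alone, 3 with the 18S covariate, 161 with fibroTIPeR 4 and 5 alone, 0 with fibroTIPeR 1 to 3 alone and 1 to 17 with a cell left out. For fibroTIPeR against fibroblast (10), they were 2 with median centring, 2 with normalization within each array set, 1 above the median level, 3 with the mean of the probe sets, 1 without the trend, 0 with the compared groups alone, with the 18S covariate or with fibroTIPeR 4 and 5 alone, 610 with fibroTIPeR 1 to 3 alone and 0 to 72 with a cell left out. For fibroTIPeR against cardiomyocyte (102), they were 63 with median centring, 191 with every probe set, 30 with the compared groups alone, 12 with the 18S covariate, 9 with fibroTIPeR 4 and 5 alone, 1056 with fibroTIPeR 1 to 3 alone and 40 to 269 with a cell left out. For fibroControl against fibroblast (283), they were 135 with the deposited values, 143 with median centring, 156 with normalization within each array set, 173 above the median level, 457 with every probe set, 86 with the compared groups alone, 0 with the 18S covariate and 42 to 144 with a cell left out. For fibroControl against cardiomyocyte (604), they were 344 with the deposited values, 369 with median centring, 375 with normalization within each array set, 967 with the compared groups alone, 6 with the 18S covariate and 257 to 352 with a cell left out. For astroTIPeR against astroControl (9), they were 72 with the deposited values, 68 with median centring, 87 with normalization within each array set, 4 above the median level, 5 with the mean of the probe sets, 26 with every probe set, 20 with the 18S covariate and 4 to 543 with a cell left out, the highest without astroControl 1. For astroTIPeR against cardiomyocyte (387), they were 3984 with the deposited values, 2620 with median centring, 595 with every probe set, 888 with the compared groups alone and 217 to 392 with a cell left out. The cause of these moves was not tested.

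The deviations of same-numbered cells from their group means correlated at -0.34 to 0.29 over the comparisons. Differently numbered cells were not set beside them, so these values cannot show whether the numbers pair cells. The main fits did not pair them. With the replicate number as a block, adjusted p between cardiomyocytes and fibroblasts was 0.0611 for Mb, 0.07108 for Ckmt2 and 0.1113 for Cox7a1 by limma, and 1 member passed between astroTIPeR and cardiomyocyte cells. With this block 163 genes passed for fibroControl against fibroblast, 321 for fibroControl against cardiomyocyte and 3 for astroTIPeR against astroControl. The shift of Cox6a2 minus Cox6a1 was 2.10 with the mean of the probe sets and 3.06 with the other probe set, against 0.44, and that of Ckm minus Ckb 2.09 with the other probe set, against 0.72. Settings with fibroTIPeR 4 and 5 or 1 to 3 alone and with the other probe set were chosen after seeing the data.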
